A study of Oryza sativa Japonica Group with 12 samples.

Results

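Leaves of rice line 8, which carries an artificial microRNA against the chlorophyll synthase gene YGL1, were compared with leaves of the untransformed cultivar Nipponbare. The comparison rests on 8 of the 12 libraries of the series, 4 of Line8 and 4 of WT, chosen by their genotype labels. Line8 is a single homozygous transgenic line of the construct p35s-Ami-YGL1, in which the 35S promoter, active in most plant tissues, drives the microRNA. WT carried no transgene and no line with a control construct was compared, so the knock-down and the mere presence of a transgene cannot be told apart. Line7, a line of the same construct with 4 libraries, is given beside Line8 where the lines were compared directly. All plants were field-grown Nipponbare, a japonica variety, and leaf RNA was sampled at 10 in the morning. The comparison asks which known rice pathways differ in expression in a leaf with lowered YGL1. The labels do not say whether replicates came from separate plants, and p-values therefore reflect only the spread among the libraries.

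Chlorophyll and heme are tetrapyrroles made in the plastid from glutamate. The shared steps lead to protoporphyrin IX, where magnesium chelatase starts the chlorophyll branch. The magnesium branch ends when chlorophyll synthase, the product of YGL1, joins chlorophyllide to its long tail. Chlorophyll is then bound by the antenna and core proteins of both photosystems, and intermediates that are left unbound can generate reactive oxygen in light. In leaves, expression of the photosynthetic genes in the nucleus is known to be coordinated with plastid state.

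The table gives nuclear genes by locus ID only. The names used here were assigned to those IDs from general knowledge of published rice gene nomenclature. Neither the deposited table nor the RefSeq table used here pairs them, so the names were not checked against an annotation. The lists held 185 pathway genes in 18 lists. Of these, 184 were found in the table and 169 had enough counts to test. The other 15 were too low in most libraries and comprised 7 drought, cold and ABA genes, 3 heat shock genes, 2 nitrogen transporter genes, 2 jasmonate genes and the heading date gene Hd1. A gene that is nearly silent in 1 group can pass this filter through the other group, so counts over the tested genes are descriptions.

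Library totals of the 8 samples ran from 15465403 to 19822636 counts. In a principal component analysis of the 8 libraries, the first component (53.6% of the variance) separated Line8 from WT. The second (22.7%) set Line8 replicate 3, at 85.5, and WT replicate 1, at 57.6, apart from the other 6 libraries, at -59.5 to 1.23. The 100 most abundant genes took 19.8% of the counts in Line8 replicate 3 and 24.2 to 31.9% in the other 7 libraries. Leaf identity was checked with leaf genes. Rubisco activase, Rca (Os11g0707000), stood at 15328 to 31589 CPM (counts scaled to a common library total) in Line8 and 25023 to 44304 CPM in WT. The other leaf genes checked, Lhcb1, Lhcb2 and 3 Rubisco small subunit copies, were present in every library, with values below. The small subunit copies stood far below Rca. Of 3 secondary cell wall genes, 2 were at 0 in each group and their summed level stayed at or below 0.484 CPM in Line8 and 0.759 CPM in WT. Summed levels of 4 meristem and cell division genes were 9.00 to 13.1 CPM in Line8 and 8.84 to 11.4 CPM in WT. In bulk leaf RNA, fewer cells of a type and less RNA per cell cannot be told apart.

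Over all genes, 27.3% of those tested were called in Line8 against WT, 15.5% higher and 11.8% lower (edgeR's quasi-likelihood test, Benjamini-Hochberg adjusted p below 0.05). Among the 169 listed genes, 44 were higher and 26 lower, which is 41.4%. Their median log2 fold change was 0.098, against -0.066 over all tested genes. The lists were chosen with earlier results of these data known, so their shares describe the lists and do not test them. Genes of chlorophyll metabolism were called in 17 of 27 cases, 13 higher and 4 lower. For photosynthesis genes, which here include Calvin cycle, photorespiration and carotenoid genes, the count was 21 of 57, with 17 higher and 4 lower. Nitrogen genes were called in 7 of 16 cases, 2 higher and 5 lower. Stress genes were called in 25 of 52 cases, 12 higher and 13 lower. None of the 17 clock and heading date genes was called. Of the 70 called genes, 36 were called in every fit that left out 1 of the 12 libraries and 34 lost the call in at least 1. Without WT replicate 3, 41 of the 70 were still called and the photosynthesis count was 10 and the stress count 14.

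**Figure D1:**
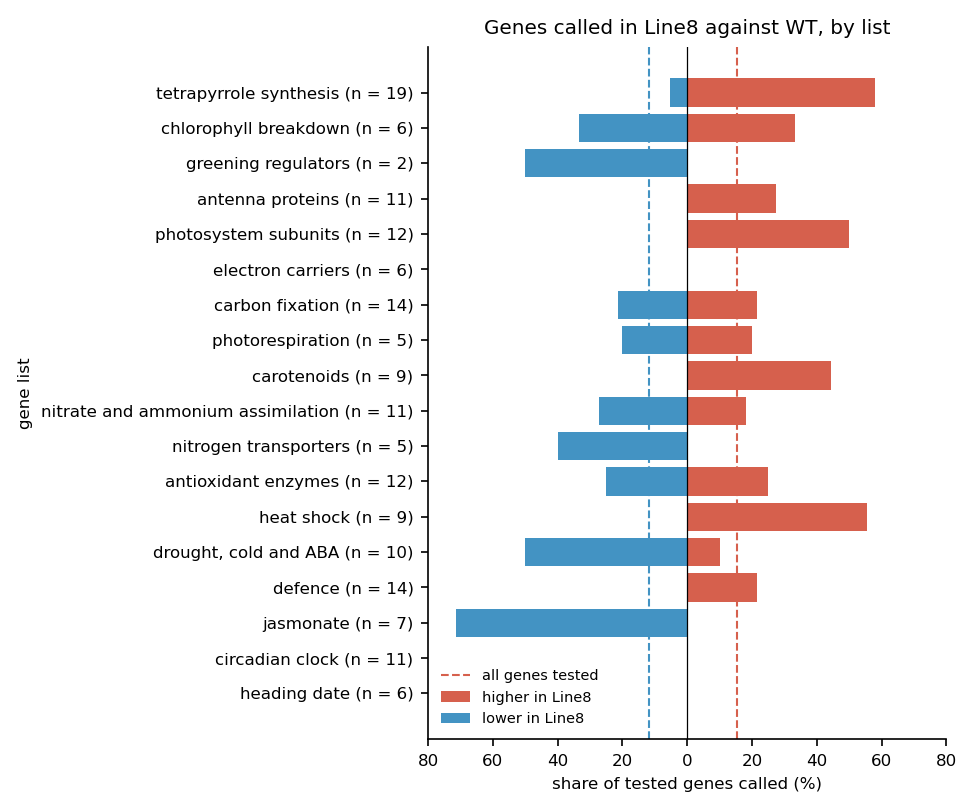
Share of the tested genes of each list that were called in Line8 against WT, in percent, with higher genes to the right (red) and lower genes to the left (blue); dashed lines mark the shares over all tested genes, 15.5% higher and 11.8% lower. Tetrapyrrole synthesis had 11 of 19 genes higher, heat shock 5 of 9 higher and jasmonate 5 of 7 lower, while electron carriers, circadian clock and heading date had none called.

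The microRNA's target, YGL1 (Os05g0349700), held 26.1, 33.4, 23.8 and 24.0 CPM in Line8 replicates 1 to 4 and 57.7, 44.2, 47.8 and 69.1 CPM in WT replicates 1 to 4. Every Line8 library lay below every WT library. The level was 2.04-fold lower in Line8 (log2 fold change -1.03, SE 0.278, edgeR adjusted p = 0.0172; exact two-sided permutation test p = 0.0286, the smallest that 4 against 4 libraries allow). Without WT replicate 4 the adjusted p was 0.0532, and without both Line8 replicate 3 and WT replicate 1 it was 0.0687.

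The steps of tetrapyrrole synthesis before YGL1 were mostly higher in Line8. Of 19 tested genes, 11 rose, YGL1 itself fell and 7 were not called, with a median log2 fold change of 1.21. HEMF (Os04g0610800), coproporphyrinogen III oxidase, held 285, 227, 304 and 213 CPM in Line8 and 23.7, 15.9, 9.64 and 18.5 CPM in WT. All 4 Line8 libraries stood far above the highest WT library, a 15.2-fold difference (log2 fold change 3.92, SE 0.607, edgeR adjusted p = 0.00203). GSA (Os08g0532200), the aminotransferase that makes 5-aminolevulinate, held 619, 652, 469 and 647 CPM in Line8 and 99.5, 135, 95.3 and 101 CPM in WT. The groups were well apart (log2 fold change 2.47, SE 0.405, edgeR adjusted p = 0.00227). HEMC (Os02g0168800), porphobilinogen deaminase, held 98.7, 91.2, 34.1 and 93.8 CPM in Line8 and 16.0, 18.2, 13.4 and 9.96 CPM in WT. Line8 replicate 3 was the lowest of its group, yet above every WT library (log2 fold change 2.46, SE 0.484, edgeR adjusted p = 0.00422). HEMB (Os06g0704600), which joins 5-aminolevulinate into porphobilinogen, rose by a smaller factor of 1.92, with 311 to 407 CPM in Line8 and 161 to 218 CPM in WT. PPOX1 (Os01g0286600), protoporphyrinogen oxidase, the last shared step, rose 3.25-fold, with 67.5 to 106 CPM in Line8 and 23.0 to 31.8 CPM in WT (log2 fold change 1.70, edgeR adjusted p = 0.00232). HEMA1 (Os10g0502400), glutamyl-tRNA reductase and the entry point of the pathway, held 12.0, 37.7, 1.54 and 42.8 CPM in Line8 and 8.71, 9.92, 6.94 and 3.11 CPM in WT. Its lowest library was Line8 replicate 3, the groups overlapped, and it was not called (log2 fold change 1.71, edgeR adjusted p = 0.0975).

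All 3 subunits of magnesium chelatase rose. CHLD (Os03g0811100) held 315, 277, 251 and 292 CPM in Line8 and 57.9, 63.7, 39.9 and 38.0 CPM in WT. The difference was 5.69-fold and the groups did not overlap (log2 fold change 2.51, SE 0.425, edgeR adjusted p = 0.00240). CHLI (Os03g0563300), the ATPase subunit, rose 4.15-fold, with 247 to 374 CPM in Line8 and 57.3 to 109 CPM in WT (log2 fold change 2.05, edgeR adjusted p = 0.00441). CHLH (Os03g0323200), the porphyrin-binding subunit, stood at 1498 to 3042 CPM in Line8 and 829 to 1297 CPM in WT and rose 2.23-fold (log2 fold change 1.16, edgeR adjusted p = 0.0155). The chelatase activator GUN4 (Os11g0267000) was at 36.4 to 142 CPM in Line8 and 40.5 to 55.0 CPM in WT and was not called (log2 fold change 0.94, edgeR adjusted p = 0.0691). After the chelatase, the cyclase subunit CRD1 (Os01g0279100) rose 2.31-fold, with 2072 to 3904 CPM in Line8 and 937 to 1577 CPM in WT (log2 fold change 1.21, edgeR adjusted p = 0.0103). The methyltransferase CHLM (Os06g0132400) and the light-dependent oxidoreductase PORB (Os10g0496900) were called higher (edgeR adjusted p = 0.0230 and 0.0306), although Line8 replicate 3 lay within the WT range for both. Each of those calls was lost when any of 5 libraries was left out, Line8 replicates 2 and 4 and WT replicates 1, 3 and 4, with adjusted p from 0.0505 to 0.0837. The steps beside YGL1 were not called. CAO1 (Os10g0567400), which makes chlorophyll b, was at 649.6 ± 159 CPM in Line8 and 485 ± 61.6 CPM in WT (SD, n = 4 each; log2 fold change 0.42, edgeR adjusted p = 0.140). CHLP (Os02g0744900), which reduces the tail that YGL1 attaches, was at 1146 ± 384 CPM in Line8 and 622 ± 202 CPM in WT (SD, n = 4 each; log2 fold change 0.88, edgeR adjusted p = 0.0596). Heme oxygenase HO1 (Os06g0603000), divinyl reductase DVR (Os03g0351200) and the nearly silent PORA (Os04g0678700) were not called either, at log2 fold changes of -0.60, 0.10 and -0.68.

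**Figure D2:**
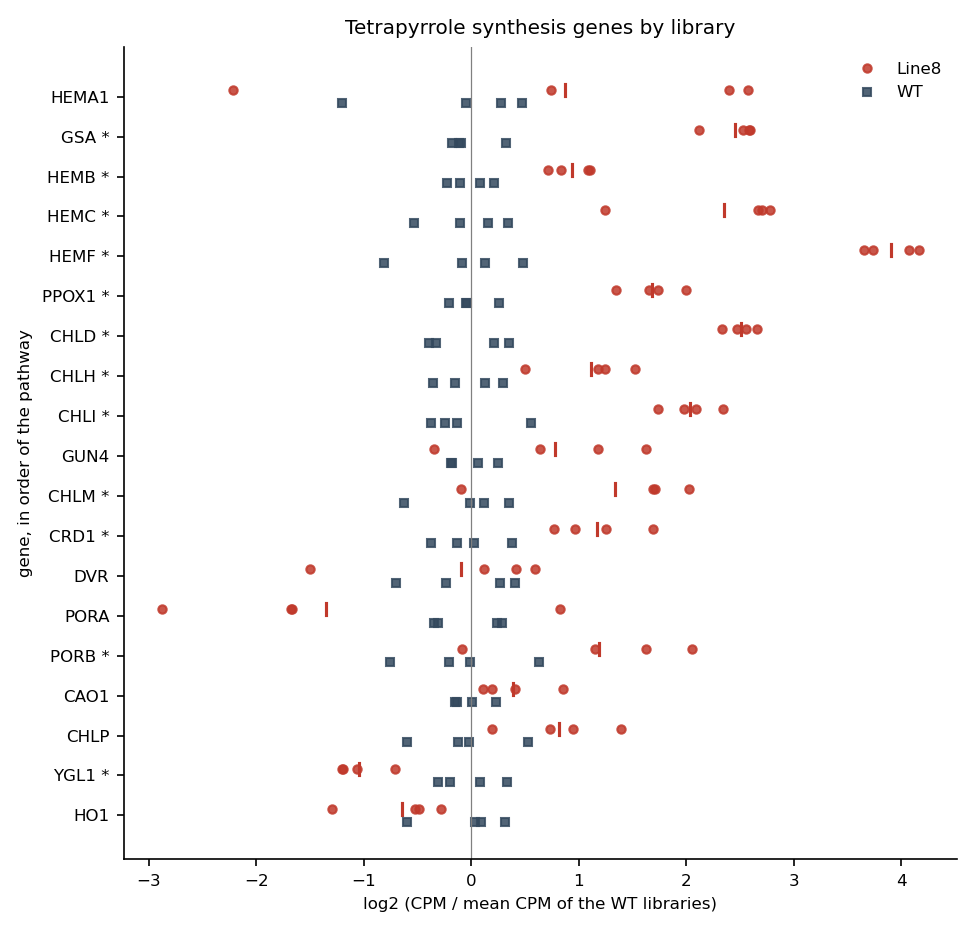
Level of the 19 tetrapyrrole synthesis genes in each Line8 library (red circles) and WT library (dark squares), as log2 of CPM over the mean CPM of the WT libraries; red bars mark the mean of the 4 Line8 values and asterisks the called genes. The Line8 circles of GSA, HEMF, PPOX1, CHLD and CHLI lie to the right of every WT square, those of YGL1 to the left, and 1 Line8 circle each of HEMA1, GUN4, CHLM and PORB lies at or left of WT squares.

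Chlorophyll breakdown genes split, with 2 of 6 higher, 2 lower and 2 not called, where 15.5% of all tested genes were higher and 11.8% lower. The chlorophyll b reductases rose, and the dechelatase and pheophorbide a oxygenase fell. NOL (Os03g0654600), a chlorophyll b reductase, held 76.1, 63.1, 70.0 and 60.4 CPM in Line8 and 15.4, 11.4, 10.1 and 14.1 CPM in WT. It was 5.28-fold higher with no overlap (log2 fold change 2.40, SE 0.368, edgeR adjusted p = 0.00203). NYC1 (Os01g0227100), its partner, rose 1.39-fold (log2 fold change 0.47, edgeR adjusted p = 0.0348), a call lost without any of 5 single libraries, Line8 replicates 2 and 4 and WT replicates 1, 3 and 4 (adjusted p 0.0511 to 0.104). SGR (Os09g0532000), the stay-green magnesium dechelatase that starts the breakdown of chlorophyll a, held 37.3, 34.7, 22.9 and 41.1 CPM in Line8 and 63.3, 72.8, 94.3 and 97.8 CPM in WT. Every Line8 library was below every WT library, a 2.41-fold difference (log2 fold change -1.27, SE 0.328, edgeR adjusted p = 0.0142). PAO (Os03g0146400), pheophorbide a oxygenase, was 1.63-fold lower, at 90.3 to 126 CPM in Line8 and 162 to 180.2 CPM in WT (log2 fold change -0.70, edgeR adjusted p = 0.0197). The call for PAO was lost without any of Line8 replicates 1, 2 or 3 or WT replicates 2 or 3 (adjusted p 0.0506 to 0.0699). Pheophytinase NYC3 (Os06g0354700) (log2 fold change -0.53) and red chlorophyll catabolite reductase RCCR1 (Os10g0389200) (log2 fold change -0.44) were not called. Of the GLK transcription factors that promote chloroplast development, GLK1 (Os06g0348800) held 61.2, 126, 56.3 and 79.3 CPM in Line8 and 171, 173, 117 and 123 CPM in WT. It was called lower although Line8 replicate 2 lay within the WT range (log2 fold change -0.86, SE 0.266, edgeR adjusted p = 0.0307), and the call was lost without any of Line8 replicates 1, 3 or 4 or WT replicates 1 or 2 (adjusted p 0.0690 to 0.0962). GLK2 (Os01g0239000) was not called (log2 fold change -0.24, edgeR adjusted p = 0.522).

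Photosystem subunits were higher in 6 of 12 cases and lower in none, with a median log2 fold change of 0.99. PsaH (Os05g0560000), a subunit of photosystem I, held 1056, 2218, 530.5 and 1293 CPM in Line8 and 237, 289, 188 and 258 CPM in WT. All Line8 libraries were above all WT libraries, on average 5.24-fold (log2 fold change 2.39, SE 0.484, edgeR adjusted p = 0.00480). PsbO (Os01g0501800), which stabilises the oxygen-evolving manganese cluster of photosystem II, held 4155, 6583, 1926 and 4638 CPM in Line8 and 1074, 1814, 878 and 1117 CPM in WT. Line8 replicate 3 came close to WT replicate 2, and the groups did not overlap (log2 fold change 1.83, SE 0.456, edgeR adjusted p = 0.0124). PsaO (Os04g0414700) rose 3.18-fold and PsaE (Os07g0435300), which faces ferredoxin on the stromal side, 3.004-fold (log2 fold change 1.67, edgeR adjusted p = 0.0107 for PsaO; log2 fold change 1.59, edgeR adjusted p = 0.00617 for PsaE). PsbP and PsaN also rose, by 2.41-fold and 2.05-fold. PsaN lost its call without any of Line8 replicates 2 or 4 or WT replicates 1, 3 or 4 (adjusted p 0.0545 to 0.0968). The 6 uncalled subunits ran from a log2 fold change of -0.67 to 0.94. PsbS1 (Os01g0869800), which triggers the dissipation of excess light, held 3181, 5455, 1538 and 5007 CPM in Line8 and 4311, 7534, 7234 and 5127 CPM in WT. It had the lowest value of the list and was not called (edgeR adjusted p = 0.178). PsaL (Os12g0420400) stood at 605 to 3338 CPM in Line8 and 937 to 1661 CPM in WT, also not called (log2 fold change 0.54, edgeR adjusted p = 0.314).

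Antenna proteins, which bind most of the chlorophyll, were higher in 3 of 11 cases and lower in none, a called share of 27.3%. The share over all genes was also 27.3% in either direction, with 15.5% higher and 11.8% lower. Lhcb4 (Os07g0558400), CP29, held 4816, 7564, 1660.4 and 4774 CPM in Line8 and 905, 2642, 1477 and 1367 CPM in WT. Replicate 3 of Line8 fell within the WT range, and the call (log2 fold change 1.56, SE 0.494, edgeR adjusted p = 0.0336) was lost without any of Line8 replicates 1, 2 or 4 or WT replicates 1, 3 or 4 (adjusted p 0.0565 to 0.0873). Lhca4 (Os08g0435900) rose 2.59-fold (log2 fold change 1.37, edgeR adjusted p = 0.0188), a call lost without WT replicate 3 (adjusted p = 0.0527). Its Line8 replicate 3, at 998 CPM, also lay within the WT range of 751 to 1076 CPM. The third called gene, Os04g0457000, was listed as Lhcb6 (CP24), but is low for that name, so either the name or its counts are uncertain. Its mean was 86.1 CPM in Line8 and 13.3 CPM in WT, where the other 10 listed antenna genes had WT means of 885 to 11345 CPM, on a scale not corrected for gene length. It held 32.6, 110.1, 152 and 49.4 CPM in Line8 and 12.9, 17.8, 11.6 and 10.9 CPM in WT, with no overlap (log2 fold change 2.69, SE 0.521, edgeR adjusted p = 0.00399). Without this locus, 2 of 10 antenna genes were higher. It was the only antenna gene whose groups did not overlap, against 31.0% of all tested genes. The major trimer-forming genes were not called. The CAB1R copy of Lhcb1 (Os09g0346500) held 13326, 13379, 2454 and 10424 CPM in Line8 and 4045, 13956, 14158 and 13220.1 CPM in WT. The 2 lowest values were Line8 replicate 3 and WT replicate 1, and the other 6 libraries lay at or above 10424 CPM (log2 fold change -0.20, edgeR adjusted p = 0.776). Lhcb2 (Os03g0592500) was at 4326 ± 1993 CPM in Line8 and 3330.5 ± 637 CPM in WT (SD, n = 4 each; log2 fold change 0.38, edgeR adjusted p = 0.380). Lhcb1 copies are near-identical, and reads may have been split between them.

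Line8 replicate 3 had the lowest Line8 level for most antenna genes. The mean log2 level of the list, relative to WT, was -0.46 in Line8 replicate 3 and 0.61 to 1.40 in the other Line8 libraries. It was -0.48 in WT replicate 1 and 0.015 to 0.37 in the other WT libraries. In a fit without these libraries, added after the data were seen, 5 of 11 antenna genes, 9 of 12 photosystem subunits and 13 of 19 tetrapyrrole genes were higher. In that fit 3154 of all 20420 tested genes were higher. Without Line8 replicate 3 alone, 6 antenna genes and 11 photosystem subunits were higher, against 3288 of all 20536 tested genes. Without WT replicate 3 alone 1 antenna gene was, against 2333 of 20546. Line8 replicate 3 and WT replicate 1 were the lowest of their groups for the antenna list, so antenna counts without them depend on that choice.

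**Figure D3:**
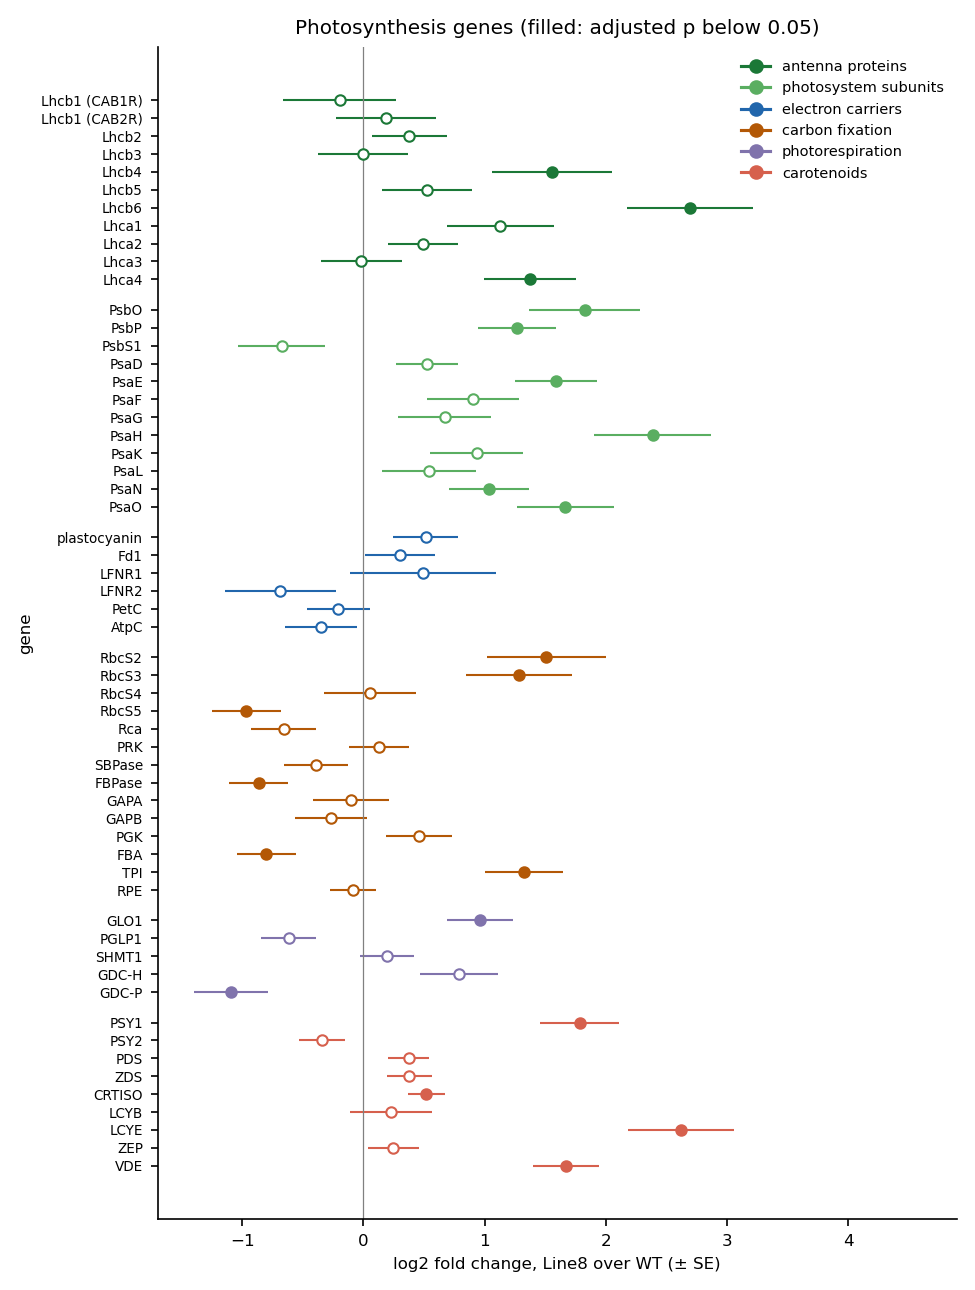
Log2 fold change of Line8 over WT for 57 photosynthesis genes, as points with bars of 1 SE derived from the edgeR F statistic, coloured by list; filled points have an adjusted p below 0.05. Photosystem subunits lie to the right of 0 except PsbS1, while carbon fixation genes lie on both sides, from -0.97 for RbcS5 to 1.51 for RbcS2.

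Electron carriers between and after the photosystems were not called in any of 6 cases, with 0 at an unadjusted p below 0.05 in edgeR and 0 called by DESeq2 or limma-voom. The plastocyanin gene (Os06g0101600), whose product carries electrons to photosystem I, was at 3721 ± 1282 CPM in Line8 and 2605 ± 503 CPM in WT, and PetC (Os07g0556200), the Rieske protein of cytochrome b6f, at 2725 ± 1029 CPM in Line8 and 3147 ± 345 CPM in WT (SD, n = 4 each). Their log2 fold changes were 0.51 (SE 0.27) and -0.21 (SE 0.26). Without both Line8 replicate 3 and WT replicate 1, 1 of the 6 was called lower, as it was without Line8 replicate 3 alone. This was Os02g0103800, at a log2 fold change of -0.69 with all libraries. It and Os06g0107700 were listed as the leaf ferredoxin-NADP reductases LFNR2 and LFNR1. Both are low for these names, so either the names or their counts are uncertain. Their WT means were 10.7 and 9.16 CPM, against 1614 to 3147 CPM for the other 4 listed electron carriers, on a scale not corrected for gene length.

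Carbon fixation genes moved in both directions, 3 higher and 3 lower of 14, where 15.5% of all tested genes were higher and 11.8% lower. The plastid triose phosphate isomerase TPI (Os09g0535000) held 1309, 1448, 1466 and 1214 CPM in Line8 and 438, 762, 588 and 380.5 CPM in WT. It was 2.51-fold higher with no overlap, and the only call of this list that held in every fit with 1 library left out (log2 fold change 1.33, SE 0.320, edgeR adjusted p = 0.0107). The Rubisco small subunit copies RbcS2 (Os12g0274700) and RbcS3 (Os12g0291100) were called higher and RbcS5 (Os12g0291400), at 2.11 to 3.11 CPM in Line8 and 4.05 to 6.62 CPM in WT, lower (log2 fold changes 1.51, 1.29 and -0.97). RbcS2 stood at 158 to 539 CPM in Line8 and 67.6 to 170.2 CPM in WT, and RbcS3 at 254 to 837 CPM in Line8 and 126 to 287 CPM in WT. These copies are near-identical, so their separate values are uncertain. The call of RbcS2 was lost without any of Line8 replicates 2 or 3 or WT replicates 1, 3 or 4, that of RbcS5 without any of Line8 replicates 1 or 4 or WT replicates 1, 2 or 3, and that of RbcS3 without any library but Line8 replicate 1 and Line7 replicates 1, 2 and 4 (adjusted p 0.0506 to 0.114). The other lower genes were plastid fructose bisphosphatase, FBPase (Os03g0267300), at a log2 fold change of -0.86, and plastid aldolase, FBA (Os11g0171300), at -0.80. Those calls were lost without any of Line8 replicate 1 and WT replicates 2 and 3, and for FBA also without Line8 replicates 3 or 4 or Line7 replicate 4 (adjusted p 0.0515 to 0.0903). Rubisco activase was not called, at 22016 ± 7127 CPM in Line8 and 34768 ± 8223 CPM in WT (SD, n = 4 each; log2 fold change -0.66, edgeR adjusted p = 0.0842). Plastid glyceraldehyde-3-phosphate dehydrogenase GAPB (Os03g0129300) was not called either (log2 fold change -0.27, edgeR adjusted p = 0.525).

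In photorespiration, which salvages the product of Rubisco's oxygenase reaction, 1 of 5 tested genes was higher and 1 lower. Of all tested genes, 15.5% were higher and 11.8% lower. GDC-P (Os01g0711400), the glycine-cleaving subunit of mitochondrial glycine decarboxylase, held 2233, 4153, 3536 and 3622 CPM in Line8 and 7454, 6456, 8291 and 6670.3 CPM in WT. It was 2.13-fold lower and the groups were clearly apart (log2 fold change -1.09, SE 0.306, edgeR adjusted p = 0.0198). Glycolate oxidase GLO1 (Os03g0786100) was at 147 to 329.8 CPM in Line8 and 102 to 120.3 CPM in WT (log2 fold change 0.96, edgeR adjusted p = 0.0212). The call of GDC-P was lost without Line8 replicate 1 or WT replicate 3, and that of GLO1 without WT replicates 3 or 4 (adjusted p 0.0540 to 0.0678). Serine hydroxymethyltransferase SHMT1 (Os03g0738400) and phosphoglycolate phosphatase PGLP1 (Os04g0490800) were not called, at log2 fold changes of 0.19 and -0.62. Without Line8 replicate 3, 2 genes of the list were higher, against 3288 of all 20536 tested genes. Without Line7 replicate 2, 2 were lower, against 2933 of all 20490.

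Carotenoid genes were higher in 4 of 9 cases and lower in none. Carotenoids sit beside chlorophyll in the antenna and quench its excited states. Lycopene epsilon-cyclase LCYE (Os01g0581300), which directs the pathway towards lutein, held 137, 161, 103 and 124 CPM in Line8 and 24.8, 23.8, 17.1 and 19.4 CPM in WT. Each Line8 library was several times above the highest WT library (log2 fold change 2.62, SE 0.436, edgeR adjusted p = 0.00232). Phytoene synthase PSY1 (Os06g0729000), the first committed step, held 63.4, 134, 123 and 101 CPM in Line8 and 39.2, 31.1, 28.6 and 23.2 CPM in WT. Its groups did not overlap (log2 fold change 1.79, SE 0.326, edgeR adjusted p = 0.00312), whereas the second phytoene synthase gene, PSY2 (Os12g0626400), had a log2 fold change of -0.34 and was not called (edgeR adjusted p = 0.197). Violaxanthin de-epoxidase VDE (Os04g0379700), which makes zeaxanthin in strong light, held 80.7, 113, 146 and 90.0 CPM in Line8 and 37.5, 36.7, 31.6 and 28.8 CPM in WT. It was 3.19-fold higher, highest in Line8 replicate 3 (log2 fold change 1.67, SE 0.274, edgeR adjusted p = 0.00224). The opposing enzyme of the xanthophyll cycle, ZEP (Os04g0448900), was not called, at 2284 ± 435 CPM in Line8 and 1927 ± 347 CPM in WT (SD, n = 4 each; log2 fold change 0.24, edgeR adjusted p = 0.403). Carotene isomerase CRTISO (Os11g0572700) rose 1.43-fold (log2 fold change 0.52, edgeR adjusted p = 0.0252), a call lost without Line8 replicate 4 or WT replicates 3 or 4 (adjusted p 0.0513 to 0.0780). Zeta-carotene desaturase ZDS (Os07g0204900) was not called (log2 fold change 0.38, edgeR adjusted p = 0.144).

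Nitrogen assimilation genes were higher in 2 of 11 cases and lower in 3, where 15.5% of all tested genes were higher and 11.8% lower. The lower genes were 2 nitrate reductases and a cytosolic glutamine synthetase. GS1;1 (Os02g0735200), the cytosolic glutamine synthetase that reassimilates ammonium in leaves, held 309, 345, 162 and 293 CPM in Line8 and 871, 656, 802 and 944 CPM in WT. The fall of 2.95-fold separated the groups (log2 fold change -1.56, SE 0.304, edgeR adjusted p = 0.00410). The plastid enzyme GS2 (Os04g0659100), which works with Fd-GOGAT in the chloroplast, was at 1912 ± 347 CPM in Line8 and 2134 ± 239 CPM in WT (SD, n = 4 each). Neither GS2 (log2 fold change -0.16, edgeR adjusted p = 0.561) nor Fd-GOGAT (Os07g0658400) (log2 fold change -0.048, edgeR adjusted p = 0.893) was called. The log2 fold change of Fd-GOGAT changed sign in the fit of the 8 libraries alone, without any of Line8 replicate 1, Line7 replicates 1 or 4 or WT replicate 1, and without both libraries that stood apart. Without 1 library, the higher assimilation genes numbered 0 without Line8 replicate 1 or WT replicates 2 or 4 and 1 without Line8 replicate 4, Line7 replicates 1, 3 or 4 or WT replicate 3.

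Nitrate reductase NIA1 (Os08g0468100) held 35.0, 102, 29.1 and 80.6 CPM in Line8 and 144, 305, 271 and 171 CPM in WT. All Line8 values were below all WT values (log2 fold change -1.85, SE 0.630, edgeR adjusted p = 0.0442), but the call was lost without any of 7 single libraries, Line8 replicates 1, 3 or 4, Line7 replicate 4 or WT replicates 2, 3 or 4 (adjusted p 0.0640 to 0.111). NR2 (Os02g0770800), a second nitrate reductase of very low level, held 0.538, 0.760, 0.296 and 0.723 CPM in Line8 and 1.19, 4.93, 6.69 and 13.1 CPM in WT. It was called lower in every fit with 1 library left out (log2 fold change -3.47, SE 0.850, edgeR adjusted p = 0.0114). ASN1 (Os03g0291500), asparagine synthetase, was at 14.0 CPM in Line8 replicate 1, at most 1.84 CPM in the other 3 Line8 libraries, and 0.775, 0, 0.0614 and 0.809 CPM in WT. Most of its 304 Line8 counts were in replicate 1, against 27 counts over the WT libraries, and the call (log2 fold change 3.47, SE 1.20, edgeR adjusted p = 0.0477) was lost without any library but Line8 replicates 2 and 3 and Line7 replicate 2 (adjusted p 0.0519 to 0.228). The other higher gene, Os01g0357100, was listed as nitrite reductase. It stood at 2.55 to 5.14 CPM in Line8 and 0.813 to 2.03 CPM in WT, low for that name, so either the name or its counts are uncertain. Its call was lost without Line8 replicate 1 or WT replicates 2 or 4 (adjusted p 0.0587 to 0.0633).

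Of 5 tested nitrogen transporter genes, 2 were lower and none higher, where 11.8% of all tested genes were lower and 15.5% higher. The ammonium transporter AMT1;1 (Os04g0509600) held 51.0, 58.9, 73.9 and 38.9 CPM in Line8 and 126, 91.3, 133 and 132 CPM in WT. It was 2.17-fold lower with no overlap (log2 fold change -1.12, SE 0.275, edgeR adjusted p = 0.0116). NRT1.1B (Os10g0554200), a nitrate transporter and sensor, was at 0.178 to 1.44 CPM in Line8 and 1.49 to 6.76 CPM in WT (log2 fold change -1.97, edgeR adjusted p = 0.0492). Its call was lost without any library but Line7 replicates 2 and 3 and WT replicate 1 (adjusted p 0.0579 to 0.152). The nitrate transporters NRT2.3 (Os01g0704100) and NRT1.1A (Os08g0155400) were not called, at log2 fold changes of -1.03 and -0.65. Several of these transporters are best known from roots. Of 3 root marker genes, 1 was at 0 in each group and 1 was tested, the silicon channel Lsi1 (Os02g0745100), which was also lower in Line8 (log2 fold change -1.26, edgeR adjusted p = 0.0201). Summed levels of the root markers were 4.48 to 16.0 CPM in Line8 and 17.6 to 24.0 CPM in WT, and their part in the result was not tested.

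Heat shock genes contained the largest fold changes of the lists. Of 9 tested members, 5 rose and none fell, and all 5 held in every fit with 1 library left out. Among them were 2 class I small heat shock protein loci with adjacent IDs. The first (Os03g0266900) held 274, 331, 274 and 483 CPM in Line8 and 7.34, 11.4, 12.3 and 8.90 CPM in WT. The second (Os03g0267000) held 113, 149, 119 and 206 CPM in Line8 and 2.92, 6.61, 9.76 and 4.61 CPM in WT. All Line8 libraries stood above all WT libraries by a factor of at least 10 at both loci, with fitted differences of 34.0-fold (log2 fold change 5.09, SE 0.595, edgeR adjusted p = 0.00171) and 24.5-fold (log2 fold change 4.62, SE 0.620, edgeR adjusted p = 0.00186). The loci are closely related in sequence, so the division of reads between them is uncertain.

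An HSP90 chaperone gene (Os04g0107900) held 3.89, 9.95, 6.99 and 18.1 CPM in Line8 and 0, 0.0542, 0.123 and 0 CPM in WT. It had 627 counts over the Line8 libraries and 3 over the WT libraries, a ratio of 218 (95% counting interval 74.4 to 1061), and passed the filter through the lines alone (edgeR adjusted p = 0.00174). Its fitted log2 fold change ranked 11 from the top among all 20217 tested genes. The plastid small heat shock protein HSP26.7 (Os03g0245800) had 201 counts in Line8 and 11 in WT, a ratio of 19.1 (95% counting interval 10.4 to 38.8; edgeR adjusted p = 0.00316). HSP101 (Os05g0519700), the chaperone that pulls aggregated proteins apart, held 20.7, 23.8, 18.7 and 30.7 CPM in Line8 and 8.77, 10.4, 12.8 and 6.41 CPM in WT. It rose 2.45-fold with no overlap (log2 fold change 1.29, SE 0.239, edgeR adjusted p = 0.00323). The heat shock transcription factors were not called. HsfA2d (Os03g0161900) was at 614 ± 133 CPM in Line8 and 515 ± 84.7 CPM in WT and HsfA2c (Os10g0419300) at 50.9 ± 6.05 CPM in Line8 and 55.1 ± 8.10 CPM in WT (SD, n = 4 each), with log2 fold changes of 0.25 (SE 0.23) and -0.11 (SE 0.20). Of the 3 members too low to test, none exceeded 11 counts in any of the 8 libraries.

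Antioxidant enzymes split evenly, 3 higher and 3 lower of 12, where 15.5% of all tested genes were higher and 11.8% lower. The ascorbate peroxidases of the chloroplast moved in opposite directions. APX8 (Os02g0553200), the thylakoid form, held 440.3, 657, 747 and 578 CPM in Line8 and 250.2, 388, 320.3 and 248 CPM in WT. It was 2.01-fold higher without overlap (log2 fold change 1.01, SE 0.251, edgeR adjusted p = 0.0123). APX7 (Os04g0434800), the stromal form, held 18.1, 11.5, 17.7 and 18.3 CPM in Line8 and 48.7, 24.3, 41.9 and 59.6 CPM in WT. It was 2.66-fold lower without overlap (log2 fold change -1.41, SE 0.292, edgeR adjusted p = 0.00533). Plastid copper-zinc superoxide dismutase, SODCP (Os08g0561700), was called higher at 121 to 355 CPM in Line8 and 83.7 to 136 CPM in WT, and cytosolic APX2 (Os07g0694700) lower at 1196 to 1843 CPM in Line8 and 1980.4 to 2957 CPM in WT (log2 fold change 1.18, edgeR adjusted p = 0.0279 for SODCP; log2 fold change -0.63, edgeR adjusted p = 0.0430 for APX2). SODCP lost its call without any of Line8 replicates 1, 2 or 4 or WT replicates 1, 3 or 4, and APX2 without any library but Line7 replicate 2 and WT replicate 1 (adjusted p 0.0511 to 0.158). The remaining called genes were mitochondrial superoxide dismutase SODA1, 1.43-fold higher, and catalase CatB, 1.45-fold lower (edgeR adjusted p = 0.0481 and 0.0476). SODA1 lost its call without any library but Line8 replicate 3 and Line7 replicates 1 and 2, and CatB without any library but Line8 replicate 1, Line7 replicate 2 and WT replicate 2 (adjusted p 0.0504 to 0.153). Peroxisomal catalase CatC (Os03g0131200), abundant in leaves, was not called (log2 fold change -0.078, edgeR adjusted p = 0.828), nor was peroxisomal APX4 (Os08g0549100) (log2 fold change 0.30, edgeR adjusted p = 0.174).

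Drought, cold and ABA genes were lower in 5 of 10 tested cases and higher in 1. NAP (Os03g0327800), a NAC transcription factor that promotes leaf senescence, held 10.7, 8.84, 3.02 and 7.05 CPM in Line8 and 32.6, 20.6, 26.7 and 32.3 CPM in WT. It was 3.79-fold lower without overlap (log2 fold change -1.92, SE 0.403, edgeR adjusted p = 0.00567). P5CS1 (Os05g0455500), the rate-limiting enzyme of proline synthesis, was the higher gene, at 152, 111, 246 and 132 CPM in Line8 and 59.5, 46.3, 36.4 and 38.3 CPM in WT. It was highest in Line8 replicate 3, and all Line8 libraries exceeded WT (log2 fold change 1.83, SE 0.379, edgeR adjusted p = 0.00533). NAP and P5CS1 were called in every fit with 1 library left out. The stress-responsive NAC factor NAC6 (Os01g0884300) was at 76.1 to 142 CPM in Line8 and 139.8 to 368 CPM in WT (log2 fold change -1.22, edgeR adjusted p = 0.0142), a call lost without WT replicate 3 (adjusted p = 0.0546). NCED3 (Os03g0645900), an enzyme of ABA synthesis, had 9 counts over the Line8 libraries and 95 over the WT libraries, so that WT exceeded Line8 by a ratio of 10.1 (95% counting interval 5.10 to 22.8; edgeR adjusted p = 0.0311). Its call was lost without any of Line8 replicates 2, 3 or 4 or WT replicates 2, 3 or 4 (adjusted p 0.0543 to 0.0802). The transcription factors DREB2B (Os05g0346200) and bZIP23 (Os02g0766700), of drought and ABA responses, were 1.51-fold and 1.61-fold lower (edgeR adjusted p = 0.0147 and 0.0170). Their calls were lost without Line8 replicate 1 or WT replicate 3, and for bZIP23 also without WT replicate 2 (adjusted p 0.0512 to 0.0640). The drought-response factors SNAC1 (Os03g0815100) (log2 fold change -0.016, edgeR adjusted p = 0.966) and NAC5 (Os11g0184900) (log2 fold change -0.76, edgeR adjusted p = 0.119) were not called. The lower genes numbered 3 without Line8 replicate 1 or WT replicate 2 and 1 without WT replicate 3. The sign of SNAC1 depended on the scaling and on the filter.

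Jasmonate genes were lower in 5 of 7 tested cases and higher in none, with a median log2 fold change of -0.83. OPR7 (Os08g0459600), a reductase of jasmonate synthesis, held 27.9, 27.7, 20.6 and 29.3 CPM in Line8 and 50.2, 43.4, 41.7 and 46.9 CPM in WT. All Line8 libraries were below all WT libraries (log2 fold change -0.79, SE 0.183, edgeR adjusted p = 0.00888). Allene oxide cyclase AOC (Os03g0438100), an earlier step, was 1.65-fold lower, at 31.5 to 48.7 CPM in Line8 and 62.0 to 81.2 CPM in WT (log2 fold change -0.72, edgeR adjusted p = 0.0122). Both calls held in every fit with 1 library left out. The other lower genes were JAZ repressors, which jasmonate is known to induce. TIFY10B (Os07g0615200) was at 95.1 to 183 CPM in Line8 and 181 to 292 CPM in WT, TIFY11B (Os03g0181100) at 1.07 to 8.19 CPM in Line8 and 9.36 to 18.7 CPM in WT, and TIFY10C (Os09g0439200) at 0.553 to 2.75 CPM in Line8 and 2.82 to 5.79 CPM in WT (edgeR adjusted p = 0.0201, 0.0338 and 0.0238). TIFY10B lost its call without any of Line8 replicates 2 or 3 or WT replicates 2 or 4, TIFY11B without any of Line8 replicate 2, Line7 replicate 4 or WT replicates 2, 3 or 4, and TIFY10C without Line8 replicate 3 or WT replicates 3 or 4 (adjusted p 0.0506 to 0.0786). The JAZ genes TIFY11C (Os03g0180900) and TIFY11D (Os10g0392400) were not called, at log2 fold changes of -1.34 and -0.42. The lower genes numbered 3 without any of Line8 replicates 2 or 3 or WT replicates 2 or 3, and 2 without WT replicate 4.

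Defence genes were higher in 3 of 14 cases and lower in none, a called share of 21.4%. Over all genes 27.3% were called in either direction, 15.5% higher and 11.8% lower. WRKY62 (Os09g0417800), a defence transcription factor, held 10.05, 19.3, 9.42 and 26.2 CPM in Line8 and 3.04, 6.83, 6.203 and 8.84 CPM in WT. The lowest Line8 library lay just above the highest WT library (log2 fold change 1.38, SE 0.354, edgeR adjusted p = 0.0137). WRKY45 (Os05g0322900), a factor of salicylate-dependent resistance, held 378, 372, 245 and 531 CPM in Line8 and 102, 214, 191 and 207 CPM in WT. It rose 2.14-fold (log2 fold change 1.096, SE 0.294, edgeR adjusted p = 0.0166), a call lost without Line8 replicate 4 (adjusted p = 0.0541). The pathogenesis-related gene PR1b (Os01g0382000) held 409.7, 20.2, 157 and 28.9 CPM in Line8 and 12.6, 9.97, 0.368 and 15.3 CPM in WT. Replicates differed more than 10-fold within each group, and the call (log2 fold change 4.01, edgeR adjusted p = 0.0322) was lost without Line8 replicate 1 or any WT replicate (adjusted p 0.0604 to 0.0944). The class 10 pathogenesis-related gene PBZ1 (Os12g0555500) (log2 fold change -0.11, edgeR adjusted p = 0.795) and the elicitor-response factor WRKY53 (Os05g0343400) (log2 fold change -0.053, edgeR adjusted p = 0.918) were not called. With DESeq2, 5 of the 14 were higher, against 3781 of all 20217 tested genes. Without Line8 replicate 2, 6 defence genes were higher, against 3075 of all 20573. Without Line7 replicate 2, 5 were, against 3561 of all 20490.

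**Figure D4:**
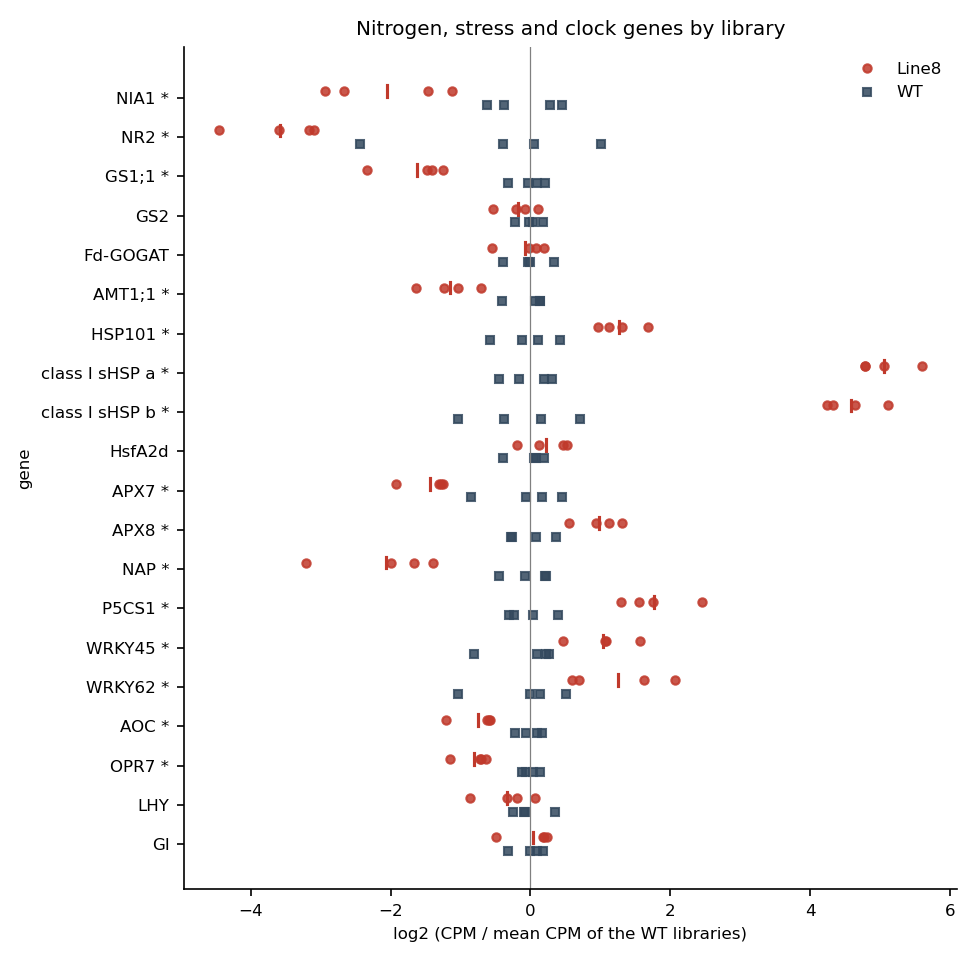
Level of 20 nitrogen, stress and clock genes in each Line8 library (red circles) and WT library (dark squares), as log2 of CPM over the mean CPM of the WT libraries; red bars mark the mean of the 4 Line8 values and asterisks the called genes. The Line8 circles of both class I small heat shock protein loci lie more than 4 log2 units to the right of 0, those of GS1;1, APX7 and NAP lie left of every WT square, and those of GS2, Fd-GOGAT, LHY and GI overlap the WT squares.

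Circadian clock genes were not called in any of 11 cases, and heading date genes in none of 6. At an unadjusted p below 0.05 in edgeR there were 2 clock genes and 1 heading date gene, against 8220 of all 20217 tested genes. DESeq2 called 1 gene of each list, limma-voom 1 clock gene, and edgeR on the 8 libraries alone 2 clock genes, lower in each case, as were 2 clock genes without Line7 replicate 2. Of all tested genes, 2944 of 20217 were lower with DESeq2 and 2528 of 20217 with limma-voom. With the 8 libraries alone 2147 of 19492 were lower, and without Line7 replicate 2, 2933 of 20490. LHY (Os08g0157600), a morning-phased clock factor, held 1478, 2365, 2819 and 2131 CPM in Line8 and 3429, 2546, 2539 and 2270.2 CPM in WT. The ranges overlapped (log2 fold change -0.29, SE 0.233, edgeR adjusted p = 0.364). GI (Os01g0182600), a clock output gene, held 806, 1303, 1292 and 1344 CPM in Line8 and 1286, 1135, 1216 and 909 CPM in WT. Line8 replicate 1 was the lowest library, and the other 3 Line8 libraries lay above the WT range (log2 fold change 0.061, SE 0.227, edgeR adjusted p = 0.859). Among the pseudo-response regulators, PRR59 (Os11g0157600) was below WT in every Line8 library, at 30.1 to 38.2 CPM in Line8 and 43.8 to 59.3 CPM in WT, and PRR37 (Os07g0695100) above WT, at 69.6 to 78.2 CPM in Line8 and 57.2 to 67.4 CPM in WT. Both were picked out after their values were seen, and neither was called (edgeR adjusted p = 0.137 and 0.282). In all, groups did not overlap in 4 of 11 clock genes, against 31.0% of all tested genes. Of the heading date genes, the florigen Hd3a (Os06g0157700) was at 8.31 to 34.9 CPM in Line8 and 20.5 to 45.5 CPM in WT, and its target MADS14 (Os03g0752800) at 356 ± 84.8 CPM in Line8 and 380.0 ± 91.2 CPM in WT (SD, n = 4 each; log2 fold change -0.10, edgeR adjusted p = 0.761). The long-day repressor Ghd7 (Os07g0261200) had the lowest unadjusted p of the 17 genes, 0.0223 in edgeR (log2 fold change -1.06, adjusted p = 0.0705). A single sampling hour gives no information on the phase of the clock.

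Averaged over each list, the tetrapyrrole genes were 0.53 to 1.61 higher on the log2(CPM + 1) scale in the Line8 libraries, relative to the WT mean, against -0.15 to 0.29 in the WT libraries. Heat shock genes were at 1.39 to 2.13 in Line8 and -0.21 to 0.30 in WT, and carotenoid genes at 0.53 to 1.00 in Line8 and -0.22 to 0.12 in WT. Jasmonate genes were at -1.24 to -0.52 in Line8 and -0.24 to 0.26 in WT, and nitrogen transporters at -0.92 to -0.40 in Line8 and -0.11 to 0.17 in WT. Drought, cold and ABA genes were at -0.77 to -0.36 in Line8 and -0.20 to 0.13 in WT. Nitrate and ammonium assimilation genes were at -0.51 to -0.078 in Line8 and -0.051 to 0.067 in WT. The groups stood apart for these 7 lists, but only narrowly for nitrate and ammonium assimilation, where 2 of 11 genes were called higher and 3 lower. These levels were computed with TMM scaling alone. Taken gene by gene, the groups did not overlap in 31.0% of all tested genes. Photosystem subunits were at 0.051 to 1.72 in Line8 and -0.31 to 0.35 in WT, overlapping through Line8 replicate 3.

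**Figure D5:**
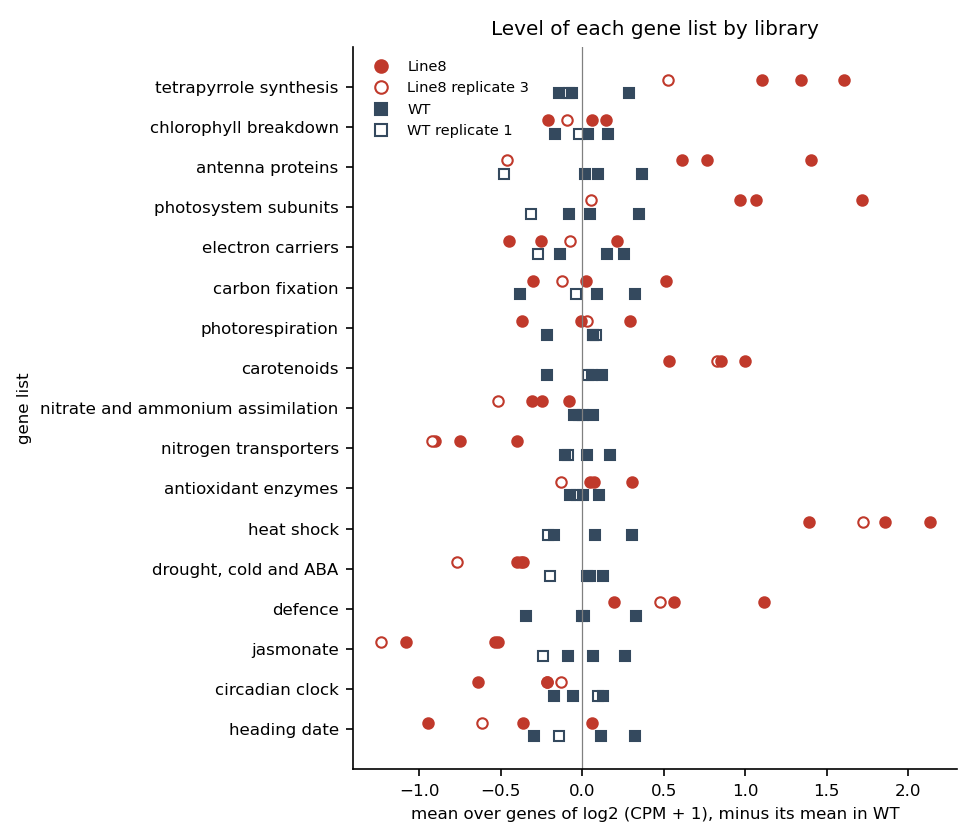
Mean of log2(CPM + 1) over the tested genes of each list in each library, relative to the mean of the WT libraries, for Line8 (red circles) and WT (dark squares); open symbols mark Line8 replicate 3 and WT replicate 1. The antenna list is lowest in those libraries within each group, at -0.46 and -0.48, while the heat shock list stands at 1.39 to 2.13 in all 4 Line8 libraries.

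Line7 carries the same construct and was compared with the same WT libraries, so its differences from WT are not independent of those of Line8. Line7 replicate 2 lay among the WT libraries on the first component of all 12 libraries. Its level of YGL1 was 68.1 CPM, within the WT range of 44.2 to 69.1 CPM, while the other 3 Line7 libraries had 27.4 to 34.4 CPM. HEMF stood at 19.3 CPM in that library, also within the WT range, and at 158 to 289 CPM in the other Line7 libraries. The edgeR results of Line7 are therefore given with and without it, from fits whose Line7 values were added after the data were seen. Against WT, 21 of the 169 genes were called in Line7, 19 of them higher, where 6.97% of all genes were called. YGL1 was not among them (-0.47, edgeR adjusted p = 0.291). Without Line7 replicate 2, 67 of the 169 were called, 45 higher and 22 lower, where 25.2% of all genes were called. YGL1 then stood at a log2 fold change of -0.87 in Line7 (SE 0.191). That library was singled out by its first component and its YGL1 and HEMF levels. Values without it therefore partly follow from that choice, and those of YGL1 and HEMF are no test. Tetrapyrrole synthesis had 6 genes higher in Line7 and a median log2 fold change of 0.65, against 11 genes and 0.86 without Line7 replicate 2. HEMF stood at 3.92 in Line8 and 3.34 in Line7 on that scale, CHLD at 2.51 in Line8 and 1.88 in Line7, and LCYE at 2.62 in Line8 and 2.05 in Line7. Without Line7 replicate 2 the Line7 values were 3.71 for HEMF, 2.21 for CHLD and 2.39 for LCYE. Defence genes were called higher in 6 of 14 cases in Line7, and in 8 without Line7 replicate 2. WRKY62 stood at 1.38 in Line8 and at 2.71 in Line7, or 2.64 without Line7 replicate 2. The difference between the lines was -1.33 for WRKY62 (SE 0.346, edgeR adjusted p = 0.202), and -1.26 without Line7 replicate 2 (edgeR adjusted p = 0.334).

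The direct contrast of Line8 with Line7 called none of the 169 genes, where 5 of 20217 genes (0.0247%) were called in all. At an unadjusted p below 0.05 in edgeR there were 36 of the 169, against 3268 of all 20217 tested genes. With Line7 replicate 2 included, DESeq2 called 8 of the 169 and limma-voom 0, and the matching counts over all genes were not taken. Without Line7 replicate 2, none of the 169 was called, and 7 of all genes (0.0342%) were. In that edgeR fit 28 of the 169 had an unadjusted p below 0.05, which was not counted over all genes. HSP90 had the log2 difference of 2.72 between Line8 and Line7 (SE 0.654, edgeR adjusted p = 0.200), HSP101 of 0.97 (SE 0.237, edgeR adjusted p = 0.200) and APX7 of -1.07 (SE 0.291, edgeR adjusted p = 0.202). Without Line7 replicate 2 these were 2.33 for HSP90, 0.88 for HSP101 and -0.80 for APX7 (edgeR adjusted p = 0.259, 0.323 and 0.350). For YGL1 itself the difference was -0.56 (SE 0.277, edgeR adjusted p = 0.331). Without Line7 replicate 2, left out partly for its YGL1 level, it was -0.16 (SE 0.188, edgeR adjusted p = 0.741). These differences did not pass the threshold, which does not show that the lines are alike.

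Outside the lists, 4 IDs with no name assigned were picked for their fitted differences, the largest in either direction among called genes whose groups did not overlap. Their low p-values and their separation therefore follow from that choice. Os08g0126500 and Os03g0252900 passed the filter without any count from the group in which they were at 0. Os08g0126500 had 164, 63, 47 and 112 counts in Line8 and none in any WT library, at least 134-fold higher against a floor of 3 counts over the WT group (edgeR adjusted p = 0.00479). Os01g0627967 had 215, 95, 222 and 283 counts in Line8 and 1 count over the WT libraries, a ratio of 851 (95% counting interval 152 to 33665; edgeR adjusted p = 0.00174). Os10g0567900 had 3 counts over the Line8 libraries and 134, 191, 157 and 212 counts in WT, so that WT exceeded Line8 by a ratio of 221 (95% counting interval 75.5 to 1077; edgeR adjusted p = 2.98e-05). Os03g0252900 had no count in Line8 and 4, 27, 16 and 13 counts in WT, at least 19.1-fold lower in Line8 against the same floor (edgeR adjusted p = 0.0245). These intervals and floors cover counting error only.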

How the data were processed

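Per the labels' protocols, Trizol was used to extract leaf RNA. For each library the authors deposited whole-number read counts of 38978 annotated rows. Not given in the sources used here are the aligner, counter, genome build, strandedness and messenger RNA selection, so reads of overlapping, antisense or near-identical genes may be misassigned. No gene length or sequence could be matched to the locus IDs, so length and base composition were not examined, levels were not compared per length, and no sequence is printed.

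Samples were grouped by their titles. The labels name more than a single season and site without saying which library belongs to which, and no batches were formed. Chi-square per degree of freedom between the counts of 2 libraries was 15.0 to 228 over the 28 pairs of Line8 and WT libraries, so none was a repeat of another.

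The analysis used edgeR 4.0.16 under R 4.3.3, with rows kept by filterByExpr on group (20217), TMM scaling, and a robust quasi-likelihood fit (glmQLFit, glmQLFTest) of all 12 libraries with group as the factor, tested on simulated data first. P-values were adjusted over all tested genes by Benjamini-Hochberg, with a threshold of 0.05. Each SE was derived from the quasi-likelihood F statistic, as the absolute log2 fold change over the square root of F. CPM are TMM-scaled, and a pseudocount of 1 was used for list levels. A group total of 0 was given a floor of 3 counts. Intervals are 95% and cover counting error only.

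The members and lists were chosen with earlier results of these data known. Named were YGL1, then up to 4 called members of each list by size of change and up to 2 uncalled members by count. Further named members were chosen after their values were seen. Alternatives were RLE, upper-quartile or no scaling factors, no filter or a stricter filter (at least 1 CPM in at least 4 libraries), DESeq2 1.42.0, limma-voom (limma 3.58.1), the 8 libraries alone, the replicate number as a block, and each library left out. Leaving out Line8 replicate 3 and WT replicate 1 together was added after the data were seen. Their effects are given in the closing section.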

Additional observations from a re-analysis of the deposited data

Results flagged for a closer look

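Each value here is the highest or lowest of 4 replicates and lies unusually far from the nearest of the others, by a check of the gap against the range of its group. The check covered 208 groups and found 12 such values, where chance alone flags about 1 in 20. No explanation was tested.

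In Line8, HEMC was low in replicate 3, at 34.1 CPM, ASN1 high in replicate 1, at 14.0 CPM, APX7 low in replicate 2, at 11.5 CPM, and GI low in replicate 1, at 806 CPM. In WT, GSA was high in replicate 2, at 135.0 CPM, and AMT1;1 low in the same library, at 91.3 CPM. The CAB1R copy of Lhcb1 was low in WT replicate 1, at 4045 CPM, where NRT1.1A, at 6.14 CPM, and MADS14, at 516 CPM, were high. Of the mean list levels on the log2(CPM + 1) scale relative to WT, drought, cold and ABA genes were low in Line8 replicate 3, at -0.77, clock genes low in Line8 replicate 1, at -0.64, and photorespiration genes low in WT replicate 4, at -0.22.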

How the results depend on the processing

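Of the 70 called listed genes, 56 to 70 were also called under each alternative with all libraries, and none changed sign. Over all genes, 4826 (replicate block) to 6725 (DESeq2) were called, against 5524. With upper-quartile scaling the median over all genes was -0.18 on the log2 scale, against -0.066 with TMM, and 46.3% of the called genes were higher, against 56.8%. Without 1 library the counts were 3443 (without WT replicate 3) to 6494 (without Line7 replicate 2) for all genes, 13 to 19 for chlorophyll, 10 to 28 for photosynthesis, 3 to 8 for nitrogen, 14 to 28 for stress and 0 to 2 for clock genes. Nitrogen genes numbered 4 without a filter. Clock genes numbered 2 with DESeq2 and with the 8 libraries alone, and 1 with upper-quartile scaling, limma-voom and the replicate block. DESeq2 called 8 listed genes between Line8 and Line7, a count not taken over all genes. The log2 fold change of YGL1 was -1.13 to -0.90 without 1 library and -0.92 without both libraries that stood apart (edgeR adjusted p = 0.0687). Same-numbered Line8 and WT libraries deviated from their group means with correlations of -0.39, 0.33, -0.25 and -0.028, so the numbers do not pair them. The highest correlations were between unlike numbers, 0.55 for Line8 replicate 3 with WT replicate 1 and 0.46 for Line8 replicate 1 with WT replicate 4. Whether such libraries share a season or site is not in the labels and was not tested. With the replicate block 14 chlorophyll, 18 photosynthesis, 6 nitrogen and 22 stress genes were called. Some uncalled log2 fold changes changed sign. SNAC1 was 0.0044 with RLE factors and DESeq2, 0.024 with the stricter filter, 0.033 with the 8 libraries and 0.047 without both libraries that stood apart, where Fd-GOGAT was 0.025 and WRKY53 0.048. Fd-GOGAT was 0.0017 with the 8 libraries and GI -0.050 with upper-quartile scaling. Without 1 library SNAC1 ran from -0.14 to 0.15, Fd-GOGAT from -0.16 to 0.14, WRKY53 from -0.21 to 0.22, GI from -0.032 to 0.26, CatC from -0.17 to 0.12, MADS14 from -0.19 to 0.088, GLK2 from -0.42 to 0.029, Lhcb1 (CAB1R) from -0.48 to 0.16, PetC from -0.40 to 0.040 and HsfA2c from -0.18 to 0.017. The causes were not tested. Depth limits genes near 1 CPM, such as NR2, NCED3 and LUX.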

Other observations

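Diterpenoid phytoalexin synthesis makes antimicrobial momilactones and phytocassanes in rice. None of its 4 listed genes was called in Line8. KSL4 (Os04g0179700), of momilactone synthesis, held 2.87, 0.691, 2.25 and 1.20 CPM in Line8 and 0.835, 0.108, 0 and 0.124 CPM in WT, with overlap between the groups (log2 fold change 2.69, SE 0.948, edgeR adjusted p = 0.0507). KSL7 (Os02g0570400), of phytocassane synthesis, held 8.13, 1.52, 3.91 and 2.53 CPM in Line8 and 2.33, 1.14, 0.307 and 0.747 CPM in WT, with overlap too (log2 fold change 1.83, SE 0.693, edgeR adjusted p = 0.0665). Against the same WT libraries, KSL4 stood at 3.68 and KSL7 at 2.90 in Line7 and both were called there (edgeR adjusted p = 0.0375 and 0.0309). Without Line7 replicate 2, in which YGL1 was at the WT level, the Line7 values were 4.06 for KSL4 and 3.24 for KSL7. The first enzymes of the branches were further from a call in Line8, CPS4 (Os04g0178300) at a log2 fold change of 1.05 and CPS2 (Os02g0571100) at -0.18 (edgeR adjusted p = 0.213 and 0.580). The differences between Line8 and Line7 were -0.99 for KSL4 and -1.08 for KSL7 (edgeR adjusted p = 0.530 and 0.406) and did not pass the threshold. Without Line7 replicate 2 they were -1.37 and -1.42 (edgeR adjusted p = 0.456 and 0.400).

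The clock genes LUX (Os01g0971800), of the evening complex, and FKF1 (Os11g0547000), a blue-light receptor, were near the detection limit. LUX held 0.179, 0, 0.355 and 0.181 CPM in Line8 and 0.656, 0.488, 0.553 and 0.622 CPM in WT, and FKF1 held 0, 0.622, 0 and 0.422 CPM in Line8 and 0.954, 1.41, 2.33 and 1.93 CPM in WT. Every Line8 library was below every WT library for both genes, and neither was called (edgeR adjusted p = 0.0844 and 0.0744). The genes of this section were chosen after their values were seen.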
